A study of Caenorhabditis elegans with 57 samples.

Results

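Germline RNA was compared between F2 grandoffspring, labelled GM+GP-, and F1 offspring, labelled M+P-, of *Caenorhabditis elegans* fathers whose sperm genome had passed through a germline without working MES-3. All 3 F2 libraries and replicates 1 and 2 of the F1 M+P- libraries were taken, which made 5 of the 33 RNA libraries and of the 57 samples of the series. F1 M+P- replicate 3 was left out because counts were missing over parts of the genome. The question was which transcripts differed 1 generation further from the affected grandfather.

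Worms of both groups carried the same genotype at the mutated and tagged genes. They had 1 copy of *mes-3(bn199)*, linked to *sams24*, which tags *glh-1* with GFP and 3xflag, together with *fem-2(b245ts)*. The single copy of the *mes-3* mutation and the *fem-2* allele were thus shared by all of them. The F2 worms came from F1 M+P- hermaphrodites of that genotype with no father, that is by selfing. The F1 M+P- worms came from *fem-2(b245ts)* mothers of the CB4856 background and fathers homozygous for *mes-3(bn199)* that also carried *glh-1::GFP* and *fem-2(b245ts)*. Through selfing, a chromosome region of F2 worms can come from 1 of these parental genomes or from both, whereas F1 worms hold both. The part of this segregation in the RNA differences between F2 and F1 was not tested. As context, 3 F1 M+P+ libraries are given beside them. Their fathers had 1 mutant copy, *mes-3(bn199)/hT2-GFP*. Each library was a pool of the distal part of 30 to 50 germlines from day 1 adults kept at 20 °C, with RNA selected for poly(A) tails. The labels' protocols call the replicates biological and do not tie them to parents or days, so p-values measure the spread between these pools.

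MES-2, MES-3 and MES-6 form the worm's Polycomb complex PRC2, which methylates histone H3 at lysine 27. This mark, H3K27me3, covers silent genes and most of the X chromosome in germ cells, and it can be carried on chromosomes by sperm and oocytes. MES-4 maintains H3K36me3, a mark of germline-expressed genes that excludes H3K27me3. Offspring that receive sperm chromosomes without H3K27me3 can express somatic genes in the germline from the sperm-inherited alleles.

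The 5 libraries held 9521528, 10859949 and 10804605 counts in F2 and 8262485 and 8030667 counts in F1 M+P-. Germline markers were present at like levels. The summed level of 8 germline markers (*glp-1*, *gld-1*, *pgl-1*, *glh-1*, *htp-3*, *him-3*, *syp-1*, *rec-8*) was 4190 to 4644 counts per 1000000 (CPM) in F2 and 4381 to 4639 CPM in F1 M+P-. The 7 oocyte markers summed to 10774 to 11761 CPM in F2 and 10905 to 11171 CPM in F1 M+P-. The 35 major sperm protein genes summed to 1.2 to 2.52 CPM in F2 and 1.99 to 2.66 CPM in F1 M+P-, and none of them was expressed highly enough to be tested. Pharynx markers *myo-1*, *myo-2* and *tnc-2* summed to under 1 CPM in every library, and *tnc-2* was at 0 throughout. Intestinal yolk transcripts were not absent, and their levels are given with the intestinal genes. In such pools, fewer cells of a type and less RNA per cell cannot be told apart.

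None of the mutated and marked genes passed the threshold used below, an adjusted p of 0.05. *mes-3* itself stood at 99.9, 94.3 and 106 CPM in F2 germlines, against 86.4 and 99.2 CPM in F1 M+P- germlines. The fitted log2 fold change of *mes-3*, F2 over F1 M+P-, was 0.11 ± 0.08 (SE; edgeR adjusted p = 1). Its PRC2 partners *mes-2* (0.09 ± 0.09) and *mes-6* (0.01 ± 0.08) and the H3K36 methyltransferase gene *mes-4* (0.03 ± 0.08) had log2 fold changes no larger than that, each with an adjusted p of 1. *glh-1*, the P granule helicase gene that carried the GFP tag, had 1085, 920 and 990 CPM in F2 and 1227 and 989 CPM in F1 M+P-. The sex determination genes *fem-2*, *fem-3*, *tra-2* and *fog-1* had log2 fold changes between -0.14 and 0.07, and *him-8*, which acts in pairing of the X chromosomes, had one of 0.03. *fog-3*, a gene needed for sperm fate, was at 0.210 to 0.555 CPM in F2 and 0.363 and 0.623 CPM in F1 M+P- and was not tested.

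Of 8622 genes tested, 4 passed an adjusted p of 0.05 in edgeR's quasi-likelihood test (0.0464%). The 3 that were lower in F2 (0.0348%) were *aldo-1*, *ketn-1* and *ldh-1*, and the 1 that was higher (0.0116%) was *unc-73*. An unadjusted p under 0.05 was reached by 346 genes, which is 4.01% of those tested. DESeq2 called 21 of 10032 genes (0.209%), 4 higher and 17 lower, and these included all 4 genes.

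**Figure D1:**
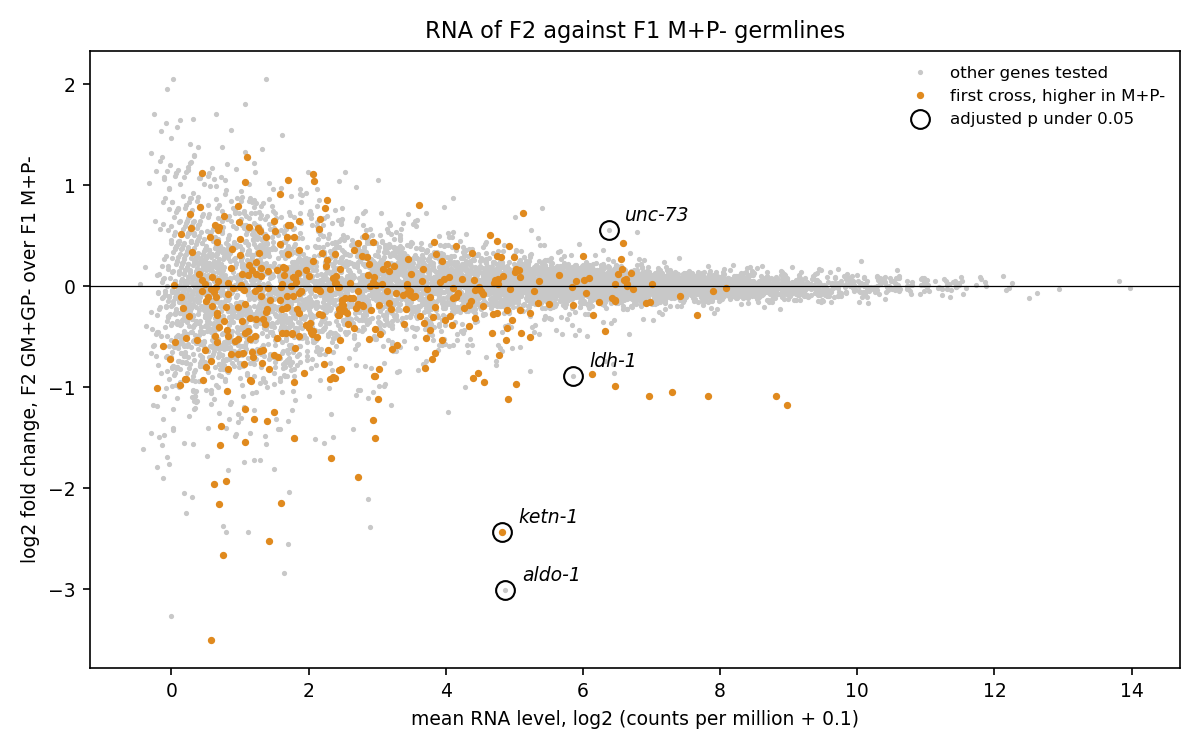
Each point is 1 of the 8622 genes tested, with the mean RNA level of the 5 libraries (log2 of CPM plus 0.1) on the x axis and the fitted log2 fold change, F2 GM+GP- over F1 M+P-, on the y axis. Orange points are genes with more RNA in the M+P- germlines of a separate first cross, relative to its M+P+ germlines, and circles mark the 4 genes past the threshold, of which *ketn-1* lies at -2.43 and *aldo-1* below it.

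*aldo-1*, on chromosome III, encodes a fructose-bisphosphate aldolase of glycolysis. It had 8.93, 7.18 and 7.03 CPM in F2 germlines, against 79.4 and 43.2 CPM in F1 M+P- germlines. Every F2 library lay well under both F1 M+P- libraries, which themselves lay far apart. *aldo-1* fell by 3.00 ± 0.26 on the log2 scale (SE; edgeR adjusted p = 0.00351). The F1 M+P+ germlines had 24.2, 25.8 and 13.6 CPM, so that F2 was also below this group in each library. The sister aldolase gene *aldo-2* stood at 461, 488 and 467 CPM in F2 and 468 and 495 CPM in F1 M+P-, a log2 fold change of -0.02 ± 0.08.

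*ldh-1*, on chromosome II, encodes lactate dehydrogenase, which interconverts pyruvate and lactate. It had 43.4, 44.2 and 41.2 CPM in F2, against 72.5 and 86.4 CPM in F1 M+P-. The groups did not overlap. *ldh-1* fell by 0.88 ± 0.09 on the log2 scale (SE; edgeR adjusted p = 0.00966). The 3 F1 M+P+ libraries spanned 40.6 to 82.0 CPM and overlapped both other groups. Of a list of 19 glycolysis genes that was drawn up after *aldo-1* and *ldh-1* had been seen, 17 were tested, and none but these 2 passed. The list's median log2 fold change was -0.06, against 0.01 over all genes tested, and 13 of the 17 were below 0. All F2 libraries were below both F1 M+P- libraries at 4 of the 17, *aldo-1* and *ldh-1* included (background over all genes tested 8.18%). *enol-1*, *pyk-1* and *tpi-1* lay between -0.03 and 0.03, *pgk-1* at -0.11 ± 0.09 and *gpd-4* at -0.13 ± 0.10, while *gpd-3* and *pyk-2*, at -0.35 ± 0.27 and -0.62 ± 0.56, had overlapping libraries.

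*ketn-1*, on chromosome V, encodes kettin, a large immunoglobulin-repeat protein of muscle thin filaments. It had 13.9, 5.62 and 11.3 CPM in F2, against 58.5 and 51.6 CPM in F1 M+P- and 0.847, 1.52 and 0.935 CPM in F1 M+P+. The F2 libraries thus lay below both F1 M+P- libraries and above all 3 F1 M+P+ libraries. *ketn-1* fell by 2.43 ± 0.28 on the log2 scale (SE; edgeR adjusted p = 0.0148). It was the only one of 29 tested muscle genes to pass. Of the 29, 20 had log2 fold changes below 0, with a median of -0.12. The muscle median was -0.35 without F1 M+P- replicate 1, -0.31 without F2 replicate 2, -0.08 without F2 replicate 3, -0.07 without F2 replicate 1 and -0.03 without F1 M+P- replicate 2, and it turned to 0.16 with F1 M+P- replicate 3 added. The libraries of the other muscle genes named here overlapped between groups. The myosin gene *unc-54* had 11, 13.9 and 9.81 CPM in F2 and 11.6 and 15.1 CPM in F1 M+P-, and the obscurin gene *unc-89* had 13.7, 14.2 and 20.1 CPM in F2 and 15.1 and 15.3 CPM in F1 M+P-. The titin gene *ttn-1* ranged widely, from 7.55 to 34.9 CPM in F2, and had 16.2 and 27.5 CPM in F1 M+P-. The body wall myosin gene *myo-3*, at a low 0.645 to 1.68 CPM in F2 and 1.09 and 2.61 CPM in F1 M+P-, had a log2 fold change of -0.60 ± 0.53.

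*unc-73*, on chromosome I, encodes a protein that acts in axon guidance. It had 92.5, 96.9 and 95.4 CPM in F2, against 61.7 and 67.2 CPM in F1 M+P-. It was the gene that rose, by 0.56 ± 0.08 on the log2 scale (SE; edgeR adjusted p = 0.0484). The F1 M+P+ libraries, at 83.7, 115 and 92.5 CPM, lay on both sides of the F2 values.

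**Figure D2:**
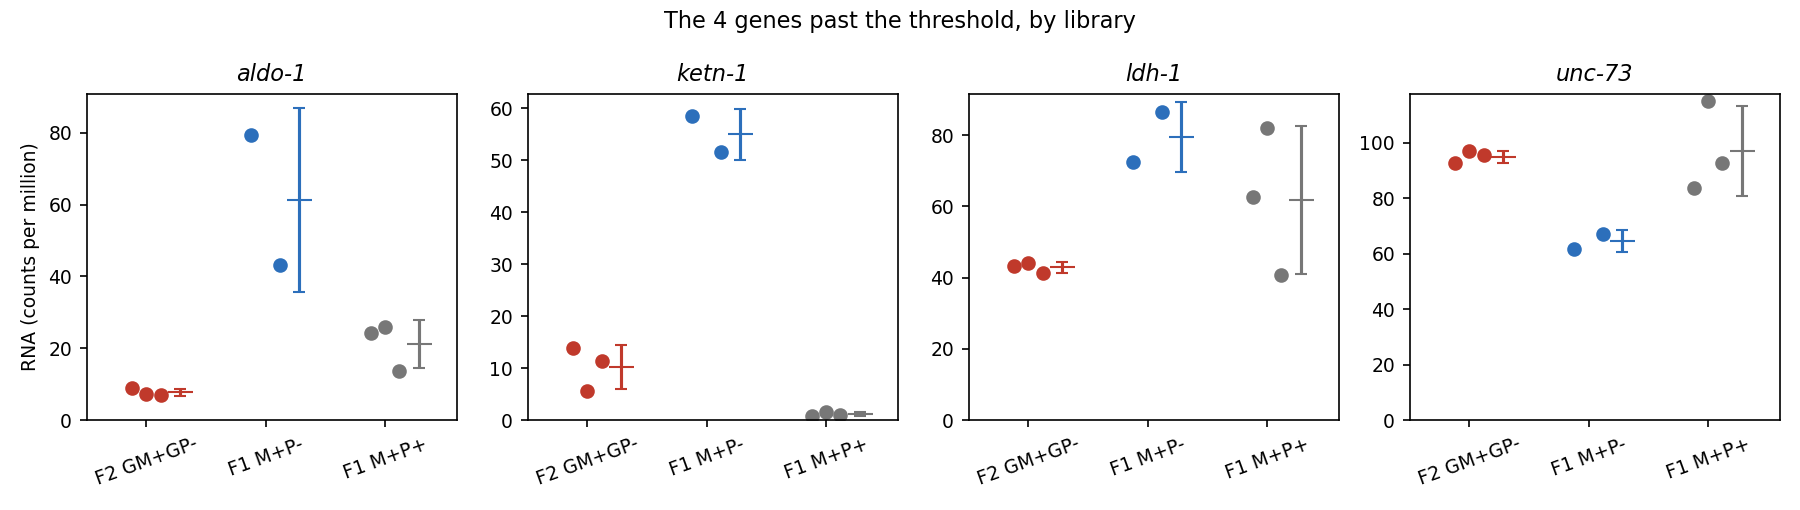
RNA level (CPM, y axis from 0) of the 4 genes that passed the threshold in each library of F2 GM+GP-, F1 M+P- and F1 M+P+ germlines. Points are libraries and the bar beside them is the mean ± SD. F2 lies below F1 M+P- for *aldo-1*, *ketn-1* and *ldh-1* and above it for *unc-73*, and only *ketn-1* is near 1 CPM in F1 M+P+.

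These calls rest on few libraries. Without F2 replicate 3 no gene passed in edgeR, 251 genes having an unadjusted p under 0.05, and *aldo-1* had an adjusted p of 0.0709. Without F1 M+P- replicate 1 *aldo-1* alone passed, and without F1 M+P- replicate 2 *aldo-1*, *ketn-1* and 5 further genes did. With F1 M+P- replicate 3 added no gene passed in edgeR, 54 genes having an unadjusted p under 0.05. Each of the 4 then had an adjusted p of 0.942. That library had 4.77 CPM of *aldo-1*, 15.7 of *ketn-1*, 46.1 of *ldh-1* and 78.3 of *unc-73*. Among 5482 genes with a mean of over 100 counts in the other 2 F1 M+P- libraries, replicate 3 was more than 4 log2 units under their mean at 14.3% and between 1 and 4 units under it at 26.4%, so the 4 values were read, as a description added after they had been seen, against the 10 nearest of those genes. The neighbours' median log2 ratio, replicate 3 over the mean of the others, stood at -2.41 for *aldo-1*, -2.49 for *ketn-1*, 0.57 for *ldh-1* and 0.60 for *unc-73*. Scaled by those medians, replicate 3 would hold 25.4 CPM of *aldo-1* and 88.4 CPM of *ketn-1*, above every F2 library. It would hold 31 CPM of *ldh-1* and 51.8 CPM of *unc-73*, both below every F2 library. For *ldh-1* this place is opposite to the call, and for the others it has the direction of the call. The scaled *aldo-1* value lay below the other F1 M+P- libraries (79.4 and 43.2 CPM) and within the F1 M+P+ range (13.6 to 25.8 CPM). The neighbours of *ldh-1* ran from -1.90 to 0.76, so that its scaled value depends on which of them is taken. Those of *unc-73* ran from 0.28 to 0.87, those of *aldo-1* from -5.57 to -2.23 and those of *ketn-1* from -4.09 to -2.30.

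The comparison was next followed in genes that responded to the paternal history in another cross. In that first cross, of the allele bn35, 430 of 8409 genes (5.11%) were higher in M+P- hermaphrodite germlines and 389 (4.63%) were lower, relative to M+P+ ones, 2 libraries each, none of which entered the comparison of F2 with F1. Of the 430 genes, 403 passed the filter on low counts here. *ketn-1* alone passed the threshold, and 14 of the 403 were higher and 49 lower in F2 at an unadjusted p under 0.05, against a background of 1.76% and 2.25% of all genes tested. The median log2 fold change of the 403 was -0.11, with 253 below 0, against a median of 0.01 and 4048 of 8622 below 0 over all genes tested. That median was -0.22 without F1 M+P- replicate 1, -0.06 without F2 replicate 2 and 0 without F1 M+P- replicate 2, and it turned to 0.10 with F1 M+P- replicate 3 added.

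The levels of these genes in F2 lay closer to F1 M+P- than to F1 M+P+. Since 12 of the 430 also belong to the lists of intestinal and cuticle genes described further on, sums were taken over the other 418. They came to 6087, 5824 and 6357 CPM in F2 and 6002 and 7077 CPM in F1 M+P-, against 3709, 4449 and 3541 CPM in F1 M+P+. The F2 libraries and the F1 M+P- libraries overlapped, and both groups lay above all F1 M+P+ libraries. Gene by gene, 271 of the 403 were higher in all 3 F2 libraries than in any F1 M+P+ library, against 12.3% of all genes tested. For F1 M+P- the count was 313 of 403, against 16.9%. Both counts use the same F1 M+P+ libraries. All F2 libraries were below both F1 M+P- libraries at 74 of the 403 (background 8.18%) and above both at 29 (background 8.43%).

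The 10 tested genes with a gene name and the largest first-cross rise are given singly. They were ranked by that rise, but only genes kept by the filter on low counts in the F2 and F1 M+P- libraries could enter. At each of the 10, every F2 library was above every F1 M+P+ library. Since F1 M+P+ did not enter the filter, this place is partly set by it. *qui-1*, on chromosome IV, which encodes a WD-repeat protein needed for avoidance of bitter compounds, had 15.5, 15.4 and 16.2 CPM in F2 and 9.68 and 13.6 CPM in F1 M+P-, against 0, 0.818 and 0.208 CPM in F1 M+P+. Both F1 M+P- libraries lay just under the F2 libraries. Its log2 fold change, F2 over F1 M+P-, was 0.44 ± 0.18 (adjusted p = 1). *oac-36*, one of a family of acyltransferase-like genes, had 5.99, 4.33 and 7.50 CPM in F2 and 5.20 and 8.72 CPM in F1 M+P-, against 0 to 0.234 CPM in F1 M+P+. *srm-1*, a gene of the chemoreceptor superfamily, had 2.52, 4.33 and 4.26 CPM in F2 and 7.26 and 6.60 CPM in F1 M+P-, against 0 to 0.470 CPM in F1 M+P+. Here the F2 libraries lay between the F1 groups, as they did at *ketn-1*.

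The rest of the 10 lay below F1 M+P- or overlapped it. *plc-2*, a phospholipase C gene, had 0.315 to 0.740 CPM in F2 and 1.09 and 1.12 CPM in F1 M+P-, and *hil-6*, a linker histone gene, had 0.460 to 1.39 CPM in F2 and 1.94 and 1.62 CPM in F1 M+P-. Both were kept by the filter on low counts through F1 M+P-, the group in which they were higher, so their place below it is partly set by that filter. The potassium channel gene *kvs-2* had 2.1, 2.49 and 4.16 CPM in F2, while its F1 M+P- libraries were far apart at 0.605 and 4.73 CPM. *nekl-4*, a NIMA-related kinase gene, *suro-1*, which acts in body shape, and *oac-52* had overlapping F2 and F1 M+P- libraries, with log2 fold changes of -0.03 ± 0.56, -0.50 ± 0.44 and -0.20 ± 0.46. Of the 10, *ketn-1* was the gene with a fall past the threshold, and the standard errors of the others ran from 0.18 to 0.62, so that differences under about 1 log2 unit could not be resolved for most of them. *unc-31*, which encodes the dense-core vesicle protein CAPS of neurons, was at 16.2, 12.1 and 11.6 CPM in F2 and 11.9 and 11.7 CPM in F1 M+P-, against 2.07 to 2.22 CPM in F1 M+P+ (log2 fold change, F2 over F1 M+P-, 0.17 ± 0.21).

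**Figure D3:**
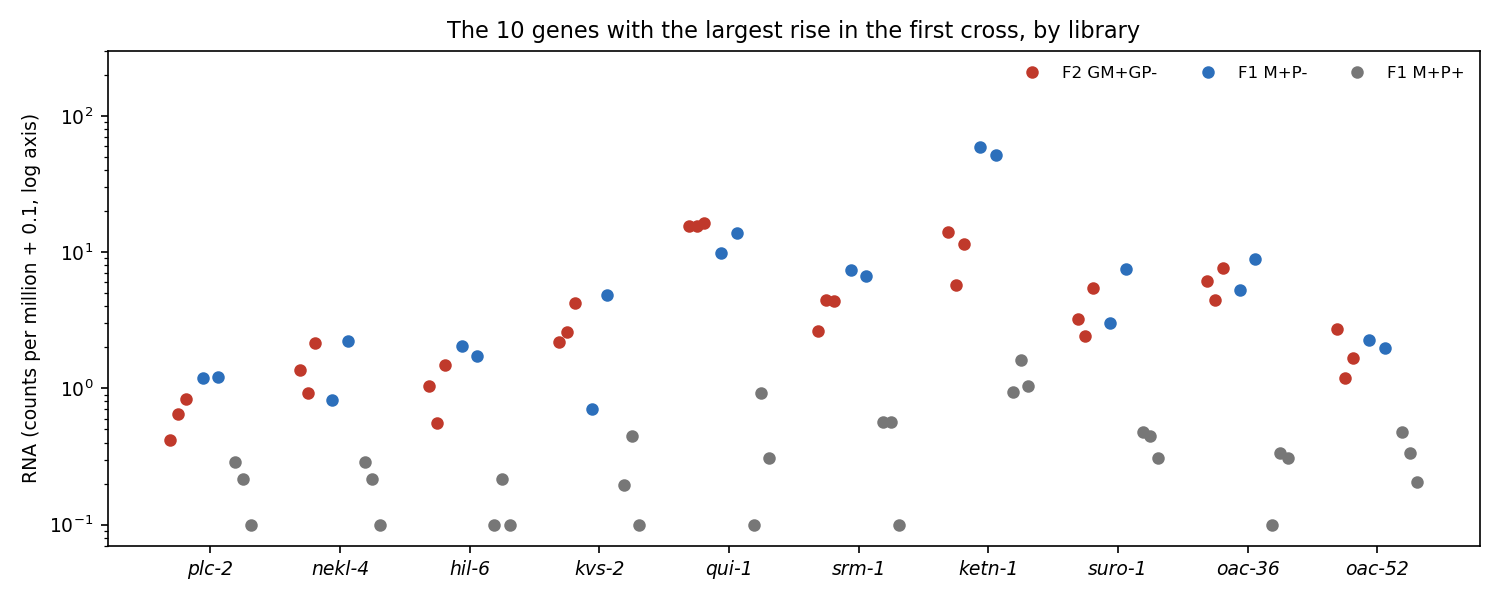
RNA level (CPM plus 0.1, log axis) in each library of the 10 tested genes with the largest first-cross fold change, ordered by that fold change from left to right. Each point is a library, red for F2 GM+GP-, blue for F1 M+P- and grey for F1 M+P+; all red points lie above all grey points of the same gene, and at *ketn-1* they lie clearly under the blue ones.

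Further first-cross genes, chosen here after their values were seen, overlapped F1 M+P- or lay below it. *tyr-6*, a tyrosinase gene, had 12.9, 20.1 and 16.7 CPM in F2 and 19.7 and 16.1 CPM in F1 M+P-, against 0.0941 to 0.727 CPM in F1 M+P+. *alh-5*, an aldehyde dehydrogenase gene, had 9.66, 7.73 and 7.68 CPM in F2 and 7.14 and 9.34 CPM in F1 M+P-, against 0.467 to 0.659 CPM in F1 M+P+. The lectin gene *clec-204* had 4.62, 2.76 and 6.02 CPM in F2 and 15.7 and 9.46 CPM in F1 M+P-, against 0 to 0.104 CPM in F1 M+P+, with a DESeq2 adjusted p of 0.0368 and an edgeR adjusted p of 0.449. The glutamate receptor gene *glr-5* had 7.35, 5.62 and 4.26 CPM in F2 and 9.20 and 12.2 CPM in F1 M+P- (edgeR adjusted p = 0.775). Among the 21 genes called by DESeq2, 7 were first-cross genes, which made up 403 of the 8622 genes tested by edgeR. They were *ketn-1*, *clec-204*, *pxn-1*, *T05C3.2*, *T05C3.6*, *C07G1.7* and *C08F11.7*, all lower in F2. *T05C3.2*, at 0 to 0.630 CPM in F2 and 3.63 and 2.49 CPM in F1 M+P-, was likewise high enough to be tested through F1 M+P-. The same holds for *C08F11.7*, at 0.463 to 1.57 CPM in F2 and 7.38 and 2.86 CPM in F1 M+P-. The lower place of these genes in F2 is thus partly set by the filter on low counts. *pxn-1*, which encodes a peroxidasin of the extracellular matrix, had 4.10, 2.12 and 3.15 CPM in F2 and 13.9 and 9.09 CPM in F1 M+P-, against 0.701 to 2.07 CPM in F1 M+P+.

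The genes that had been lower in first-cross M+P- germlines leaned the other way. Of 360 tested, *unc-73* was called, 29 were higher and 2 lower at an unadjusted p under 0.05 (background 1.76% and 2.25%), and the median log2 fold change was 0.14, with 261 above 0. That median was 0.05 without F2 replicate 2, 0.23 without F2 replicate 3 and 0.22 without F1 M+P- replicate 1, and the SD over the F2 libraries was 0.15. Of the 389 listed genes, 311 are X-linked, and the 287 tested X-linked members had a median of 0.15, while the 73 autosomal members had 0.10. All F2 libraries were below all F1 M+P+ libraries at 161 of the 360 (background 7.67%), and both F1 M+P- libraries were below them at 243 (background 12%). The 2 counts again share the F1 M+P+ libraries. *meg-1*, an X-linked gene for a P granule component, had 116, 130 and 91.8 CPM in F2 and 94.6 and 84.6 CPM in F1 M+P-, against 132 to 166 CPM in F1 M+P+. *jmjd-3.1*, an X-linked gene for an H3K27 demethylase, had 2.52, 3.22 and 1.3 CPM in F2 and 0.847 and 1.25 CPM in F1 M+P-, against 3.85 to 4.23 CPM in F1 M+P+. Neither passed (log2 fold changes 0.33 ± 0.14 and 1.16 ± 0.51, edgeR adjusted p = 1 for both). *jmjd-3.1* was kept by the filter on low counts through F2, the group in which it was higher. Its place above F1 M+P- is thus partly set by that filter. Over all 851 tested X-linked genes the median was 0.05 and none was called, 20 being higher and 16 lower at an unadjusted p under 0.05. The X-linked median turned to -0.03 without F2 replicate 2, and it was 0.13 without F2 replicate 3 and 0.08 without F1 M+P- replicate 2.

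Reads over sequence differences between CB4856 and N2 gave the share from the N2 genome, which had come through the sperm of the F1's father. In F2 worms a chromosome region can be of 1 origin or of both, so a share reflects which alleles the pooled worms held as well as their use. By chromosome, the N2 share of RNA reads ran from 44.4% to 57.0% in the F2 libraries and from 49.6% to 55.2% in the F1 M+P- libraries. Over the first-cross higher genes, 75.5%, 71.1% and 76.9% of allele reads in F2 were N2 reads, against 77.5% and 77.9% in F1 M+P- and 65.3%, 64.5% and 63.2% in F1 M+P+. The F2 shares lay below both F1 M+P- shares and above all F1 M+P+ shares. Each rests on 1075 to 2223 reads. The Wilson 95% interval was 73.5% to 77.4% for F2 replicate 1 and, at its widest, 60.2% to 66.0% for F1 M+P+ replicate 3. That of F2 replicate 3, 75.1% to 78.6%, held both F1 M+P- shares, while those of F2 replicates 1 and 2 held neither. Over the other genes the share was 50.7% to 53.9% in F2, 51.9% and 52.7% in F1 M+P- and 51.3% to 52% in F1 M+P+. The N2 share of the first-cross genes was thus above that of other genes in each F2 library, as it was in each F1 M+P- and F1 M+P+ library. No test was made of these shares.

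Single genes gave few allele reads. *oac-36* had 19 N2 and 1 CB4856 reads over the 3 F2 libraries and 14 N2 and 2 CB4856 reads over the 2 F1 M+P- libraries. *ketn-1* had 8 N2 reads and 1 CB4856 read in F2 and 16 N2 reads and 1 CB4856 read in F1 M+P-, and none of either kind in F1 M+P+. For *unc-73*, the N2 share was 86.2%, 79.2% and 79.4% in F2, against 47.4% of 19 reads and 7 of 10 reads in F1 M+P-, where the Wilson 95% intervals were 27.3% to 68.3% and 39.7% to 89.2%. Such intervals cover counting error only. Summed over libraries, *unc-73* had 71 N2 and 16 CB4856 reads in F2 and 16 N2 and 13 CB4856 reads in F1 M+P-. In F1 M+P+ it had 49 N2 and 19 CB4856 reads, so that N2 reads were also the larger part there. *aldo-1* and *ldh-1* had no allele reads.

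Intestinal genes leaned to lower values in F2, and none passed singly. Of 19 tested none was called by edgeR or DESeq2, and all 19 had log2 fold changes below 0, with a median of -0.74 and 7 at an unadjusted p under 0.05 (background 2.25% in this direction). The median moved to -1.41 without F2 replicate 2, -1.12 without F1 M+P- replicate 1, -0.46 without F2 replicate 1 and -0.35 without F1 M+P- replicate 2, and to -0.30 with F1 M+P- replicate 3 added. The yolk protein genes *vit-1* to *vit-6*, whose products are made in the intestine and taken up by oocytes, had log2 fold changes of -0.99 to -1.17. Counts of *vit-3*, *vit-4* and *vit-5*, which are near-identical copies, are uncertain one by one. *vit-6* had 236, 513 and 252 CPM in F2 and 566 and 948 CPM in F1 M+P-, against 208, 463 and 113 CPM in F1 M+P+ (log2 fold change, F2 over F1 M+P-, -1.17 ± 0.29; edgeR adjusted p = 0.549). The 30 genes of the list summed to 806, 1951 and 931 CPM in F2 and 1880 and 3231 CPM in F1 M+P-, against 697, 1638 and 434 CPM in F1 M+P+. The sums of F2 replicate 2 and F1 M+P- replicate 1 overlapped, and replicate 2 was the highest library of each group. *elt-2*, the defining intestinal transcription factor gene, was at 0 to 0.645 CPM in F2 and 0.121 and 0.374 CPM in F1 M+P-, and the gut esterase gene *ges-1* was at 1.26 to 2.76 CPM in F2 and 2.54 and 2.61 CPM in F1 M+P-.

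Cuticle collagen genes, which belong to the hypodermis, were likewise highest in replicate 2 of each group. Of 43 tested none was called by edgeR or DESeq2, 3 were lower and 1 higher at an unadjusted p under 0.05 (background 2.25% and 1.76%), and 40 were below 0, with a median of -0.34. The collagen median moved to -0.80 without F2 replicate 2, -0.58 without F1 M+P- replicate 1, -0.23 without F2 replicate 3 and -0.17 without F1 M+P- replicate 2, and turned to 0.06 with F1 M+P- replicate 3 added. Their list of 177 summed to 785, 1690 and 790 CPM in F2 and 1127 and 1676 CPM in F1 M+P-, against 394, 1239 and 476 CPM in F1 M+P+, and the part of such tissue in any result was not tested. Without F2 replicate 2 the count of called genes went up to 56, of which 22 were intestinal or collagen genes and 19 first-cross genes. Among the 8622 genes of the comparison with all 5 libraries, 19 were intestinal, 43 collagen and 403 first-cross genes. Of the 4 called genes, *ldh-1* and *unc-73* were also highest in replicate 2 of every group, with SDs over the F2 libraries of 1.56 and 2.21 CPM. *aldo-1* and *ketn-1* were highest in replicate 1 of F2 and of F1 M+P-.

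**Figure D4:**
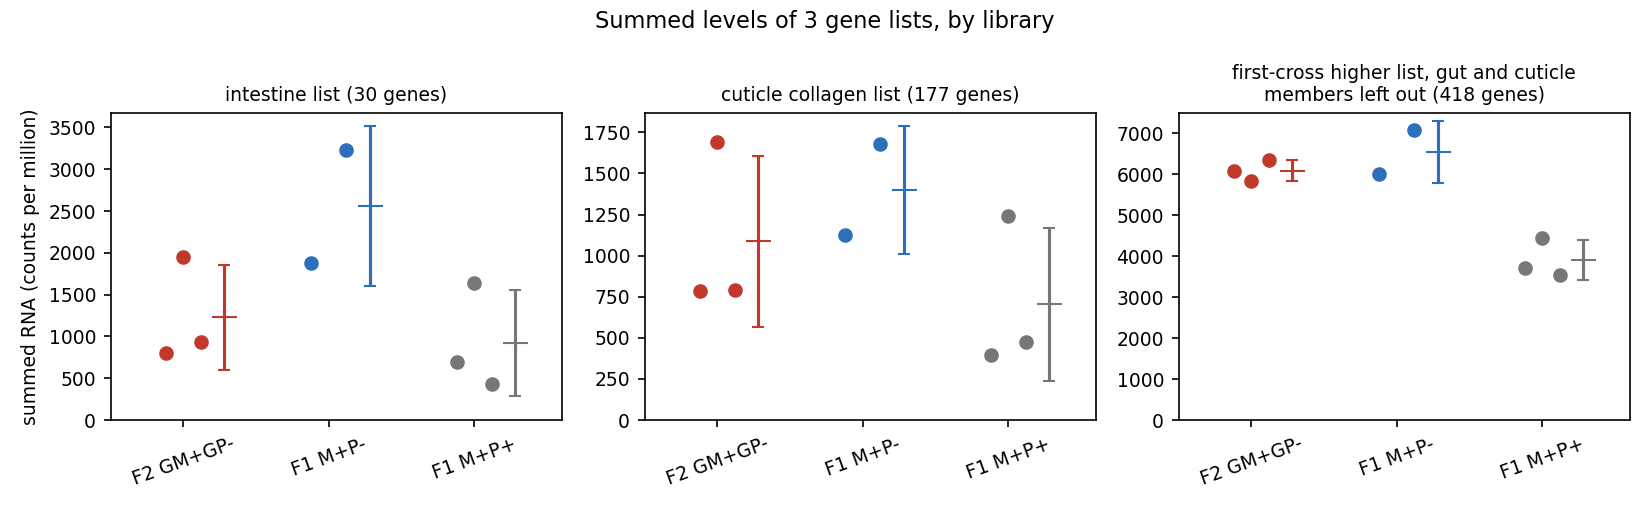
Summed RNA level (CPM, y axis from 0) of the intestinal list, the cuticle collagen list and the first-cross higher list without its intestinal and collagen members, in each library of F2 GM+GP-, F1 M+P- and F1 M+P+ germlines, with the mean ± SD beside the points. One library of each group is high in the 2 left panels (1951 CPM against 806 and 931 in F2 for the intestine), whereas in the right panel F2 (5824 to 6357 CPM) and F1 M+P- lie together above F1 M+P+.

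The other lists given here held no gene called by edgeR. Medians lay within 0.03 of 0 for 50 germline core genes, 45 tested germ granule and small RNA genes, 45 oogenesis and eggshell genes, 63 ribosomal protein genes and 33 proteasome genes. The 20 tested neuronal genes had a median of 0.19, with 17 above 0, and that median ran from 0.11 without F2 replicate 1 to 0.29 without F1 M+P- replicate 2 and was 0.53 with F1 M+P- replicate 3 added. Neuronal genes summed to 657, 690 and 660 CPM in F2 and 639 and 647 CPM in F1 M+P-. The 23 tested C-type lectin genes had a median of -0.59, with 5 lower and none higher at an unadjusted p under 0.05 (background 2.25% and 1.76%). Of the 13 tested genes of the somatic gonad and sheath, whose cells wrap the germline, 8 were below 0, with a median of -0.01. All F2 libraries were below both F1 M+P- libraries at 4 of these and above both at 2 (background 8.18% and 8.43%). The gap junction genes *inx-8* and *inx-9* had 23.5 to 28.6 and 6.91 to 8.42 CPM in F2, against 31.6 to 32.1 and 8.59 to 11.1 CPM in F1 M+P-, and both were lower in every F2 library. *lim-7*, a sheath transcription factor gene, lay the other way, at 4.97 to 5.92 CPM in F2 and 4.48 CPM in both F1 M+P- libraries. Genes seen with DESeq2 and not with edgeR included *taf-11.2*, a TAF11-like gene of the TFIID complex, at 126 ± 11.4 CPM in F2 (SD, n = 3) and 84.8 and 88.7 CPM in F1 M+P- (DESeq2 adjusted p = 0.00981). The neurabin gene *nab-1* had 38.5, 34.6 and 40.3 CPM in F2 and 21.5 and 25.7 CPM in F1 M+P- (DESeq2 adjusted p = 0.049).

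Both histone marks had been profiled by CUT&RUN, in which a nuclease releases DNA bound by an antibody, with 2 libraries of each group. At *ketn-1*, H3K36me3 stood at 147 and 206 CPM in F2 and 177 and 147 CPM in F1 M+P-, against 70.8 and 83.1 CPM in F1 M+P+. The H3K36me3 log2 fold change of *ketn-1*, F2 over F1 M+P-, was -0.05 ± 0.31 (SE), while its RNA fell. H3K27me3 at *ketn-1* was 448 and 454 CPM in F2 and 441 and 367 CPM in F1 M+P-, against 422 and 357 CPM in F1 M+P+. The alleles behind H3K36me3 at *ketn-1* differed between groups: 25.8% and 48.7% of 132 and 230 reads were N2 reads in F2, against 84.7% and 75.1% of 202 and 269 reads in F1 M+P- and 65.0% and 53.8% in F1 M+P+. H3K27me3 reads at *ketn-1* were 42.1% and 56.1% N2 in F2 and 40.9% and 47.3% N2 in F1 M+P-. At *qui-1*, H3K36me3 was 190 and 195 CPM in F2 and 246 and 191 CPM in F1 M+P-, against 57.3 and 96.1 CPM in F1 M+P+.

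The first-cross higher genes showed a like pattern in H3K36me3. Of 419 tested for H3K36me3 none was called between F2 and F1 M+P-, against 0.312% of all genes tested, and the median log2 fold change was -0.07. Both F2 libraries lay above both F1 M+P+ libraries at 334 of the 419, against 44.3% of all genes tested, and both F1 M+P- libraries did so at 306, against 23.6%. H3K36me3 scores of F2 replicate 2 spread less than those of the other F2 and F1 M+P- libraries, and without it F2 replicate 1 lay above both F1 M+P+ libraries at 358 of the 419 (background 50.9%). The N2 share of H3K36me3 reads over these genes was 63.8% and 60.1% in F2, against 73.6% and 66.3% in F1 M+P- and 61.4% and 56.7% in F1 M+P+. The F2 shares of H3K36me3 thus lay below both F1 M+P- shares and overlapped those of F1 M+P+, whereas the RNA shares of F2 were above all of F1 M+P+. Over the other genes the H3K36me3 share was 53.9% and 55.0% in F2. It was 57.8% and 57.3% in F1 M+P- and 54.9% and 54.5% in F1 M+P+. The order of the groups in H3K36me3 was thus shared by the other genes. For H3K27me3, 3 of 420 were called, all lower in F2 (background 6.13%), with a median of 0.02. The N2 share of H3K27me3 reads was 38.2% and 46% in F2, against 38.6% and 46.3% in F1 M+P- and 49.8% and 49.1% in F1 M+P+. Over the other genes it was 48.8% and 52.9% in F2, 46.9% and 48.9% in F1 M+P- and 50.3% and 51.9% in F1 M+P+.

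Across the genome the differences in the marks varied with the level of the mark, and the counts of calls varied with the libraries and the tool. For H3K27me3, 1783 of 29075 genes were lower and 8 higher in F2 (6.13% and 0.0275%). Of the lower ones, 1623 had a mean H3K27me3 score at or below 0 in germlines of *him-8* males with working PRC2, and 129 had a score above 0. These classes held 5301 and 14127 of the genes tested. Median log2 fold changes were -0.70 for genes with a score of -0.5 or less and 0.08 for genes above 0.5. Chromosomes I and III, with medians of -0.28 and -0.38, held 442 and 449 of the lower genes, out of 3066 and 2828 tested there. The X chromosome held 2, out of 3948 tested. For H3K36me3, 79 of 25284 genes were higher in F2 and none lower, although 2366 had an unadjusted p under 0.05 and DESeq2 called none. Of the 79, 77 were X-linked, as were 3276 of the genes tested. The median H3K36me3 log2 fold change was 0.97 on the X chromosome and 0.69 for genes with a *him-8* score of -0.5 or less, against -0.38 for genes above 0.5.

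The libraries themselves differed in range. The interquartile range of the authors' H3K27me3 scores was 1.21 and 1.24 in F2 and 1.00 and 0.73 in F1 M+P-. That of H3K36me3 scores was 1.14 and 0.63 in F2 and 1.25 and 1.18 in F1 M+P-, and the narrow F2 replicate 2 also had 7521186 counts, against 11076201 to 12175046 in the others. Without F2 replicate 2, or without F1 M+P- replicate 1, edgeR called no gene for H3K36me3 (756 and 1069 genes at an unadjusted p under 0.05). Without F2 replicate 1 it called none for H3K27me3 (2789 genes at an unadjusted p under 0.05), and without F1 M+P- replicate 2 it called 23. The part of library range in these counts was not tested. Among the named genes and the glycolysis list, H3K27me3 fell at 5, none of which passed in RNA (background over all genes tested 6.13%). These 5 are given as single genes and not as a result about a list. They were *mes-2* (log2 fold change -0.88 ± 0.21, edgeR adjusted p = 0.015), *tra-2* (-0.74 ± 0.16, adjusted p = 0.0113) and the glycolysis genes *gpi-1* (-1.0 ± 0.22, adjusted p = 0.011), *pyk-1* (-0.64 ± 0.19, adjusted p = 0.0376) and *aldo-2* (-1.05 ± 0.31, adjusted p = 0.0414). Their H3K27me3 scores in *him-8* germlines were all below 0, as were those of most genes called lower. No H3K27me3 or H3K36me3 difference passed at *aldo-1*, *ldh-1*, *ketn-1* or *unc-73*.

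**Figure D5:**
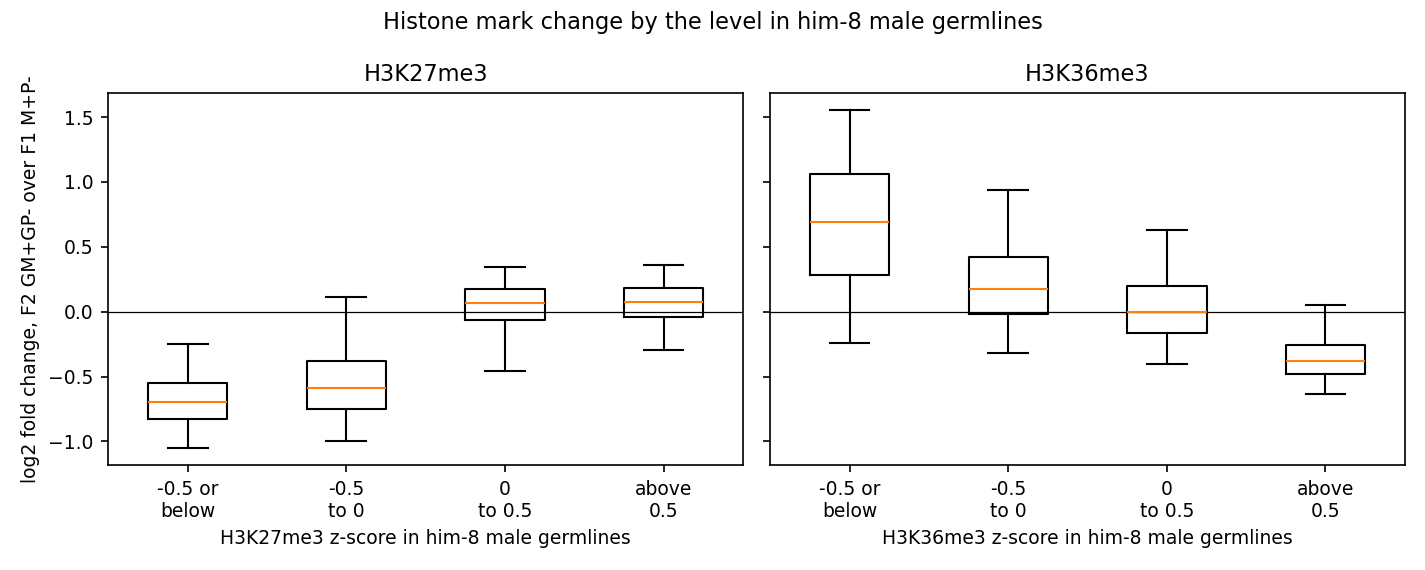
Log2 fold change, F2 GM+GP- over F1 M+P-, of H3K27me3 (left) and H3K36me3 (right) per gene, by the gene's mean score for that mark in *him-8* male germlines. Boxes show the median and quartiles, and whiskers the 5th and 95th percentiles over genes; H3K27me3 is lower in F2 where its score is low (median -0.70), and H3K36me3 is higher where its score is low (median 0.69) and lower where it is high (median -0.38).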

How the data were processed

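Raw counts per gene for RNA and CUT&RUN were deposited by the authors; the labels' design text says that reads for expression were mapped in pairs, to ce10. Without saying what each did, the submitters' processing notes list DESeq, DESeq2 1.22.2, HTSeq, Bowtie2 2.3.5.1 and TopHat2 2.1.1. Whether counting used strand is not stated in these sources, so overlapping, antisense and near-identical genes have uncertain counts. Allele counts are the authors', per the file headers. The score values deposited by the authors are z-scores per gene and were used only as levels. The authors' table of fold changes was not used.

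F2 GM+GP- and F1 M+P- libraries were compared with edgeR 4.0.16 in R 4.3.3 (quasi-likelihood test on the counts, TMM scaling, filterByExpr, Benjamini-Hochberg adjustment over all genes tested, threshold 0.05). CPM is counts per 1000000 of the library total. Standard errors (SE) come from the F statistic. The same fit was made for each mark with 2 libraries a group. DESeq2 1.42.0 and the other settings are described under the dependence on processing. In simulated RNA counts of 8622 genes, the test recovered 68 of 100 genes changed 2-fold (1 on the log2 scale) and 92 of 100 changed by 2 on the log2 scale. It also called 20 unchanged genes. At 2-fold it recovered 51 of 100 for H3K27me3, with 7 false calls, and 9 of 100 for H3K36me3, with 1. At 2 on the log2 scale it recovered 90 and 56. The simulated RNA counts held more changed genes than the 4 called here, which eases the adjusted threshold. They also had no shift shared by many genes of a library. The shares recovered can therefore overstate what the test finds in these data. Gene names came from RefSeq's table of WBcel235, which matched 44080 of 45461 identifiers; no coordinates are printed because the builds differ. The members and gene lists were chosen with earlier results of these data known. Genes were named where they passed with non-overlapping libraries and at least 5 CPM in the higher group, where they were among the 10 tested genes with the largest first-cross fold change, or where they belonged to a fixed set (PRC2, *mes-4*, sex determination and genes of the crosses); others are said to be chosen afterwards or come from DESeq2's calls, the cell type markers or the lists. No 2 libraries of a group were identical.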

Additional observations from a re-analysis of the deposited data

How the results depend on the processing

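The count of 4 called RNA genes was 3 with RLE scaling, 21 with DESeq2, 125 with no filter on low counts, 2 with F1 M+P+ in the fit and 0 with F1 M+P- replicate 3 added, and it ran from 0 to 56 when each library was left out in turn. All 4 genes were among the calls of DESeq2, of the fit with no filter and of the fit without F2 replicate 2. *aldo-1* and *ketn-1* passed without F1 M+P- replicate 2, and *aldo-1* alone without F1 M+P- replicate 1. The 1791 H3K27me3 calls became 357 with RLE scaling and ran from 0 to 4151 with libraries left out. The 79 H3K36me3 calls became 0 with DESeq2, 18 with RLE scaling and 29 with no filter, and ran from 0 to 3982 with libraries left out. Without F2 replicate 2 there were 672 H3K27me3 calls, without F1 M+P- replicate 1 there were 4151, and without F2 replicate 1 there were 3982 H3K36me3 calls; where 1 library was left in a group, it was assumed to vary like the others. The cause of these shifts was not tested.

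With the replicate number as a block there were 71 RNA, 2623 lower and 28 higher H3K27me3, and 451 H3K36me3 calls. Of these 71 RNA calls, 31 were first-cross higher genes and 9 were intestinal or collagen genes. Such genes made up 403 and 62 of the 8622 tested without the block. Single genes were followed over the settings for 26: the called genes, the 10 with the largest first-cross rise and the tested fixed set. Of those that did not pass without the block, *meg-1* passed with it (log2 fold change 0.46, edgeR adjusted p = 0.00259). The other named genes were not followed in this way. The numbers are not known to pair the samples: same-numbered libraries deviated together with r of 0.21 and 0.216 for RNA, 0.0212 for H3K27me3 and 0.0466 for H3K36me3. Deviations from the mean of 2 libraries mirror each other. The 2 pairs of a mark therefore give the same value, and the 2 pairs of RNA are not independent.

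The 4 called genes kept their direction under every setting run. Of the 26 genes followed over the settings, those that did not pass changed sign as follows. With F1 M+P- replicate 3 added, *nekl-4* was at 0.28, *oac-52* at 0.23, *mes-2* at -0.06, *mes-3* at -0.04, *fog-1* at -0.02 and *fem-3* at 0.32. With the block or with F1 M+P+ in the fit, *mes-6* was at -0.04 and -0.01. With each library left out in turn, values ran from -0.58 to 0.86 for *nekl-4*, -0.65 to 2.20 for *kvs-2*, -1.01 to 0.26 for *suro-1*, -0.51 to 0.14 for *oac-36*, -0.61 to 0.04 for *oac-52*, -0.05 to 0.05 for *mes-6*, -0.03 to 0.08 for *mes-4*, -0.35 to 0.05 for *glh-1*, -0.08 to 0.03 for *fem-2*, -0.13 to 0.20 for *him-8*, -0.01 to 0.27 for *unc-31* and -0.07 to 0.21 for *fog-1*. With F1 M+P- replicate 3 added, the median of all genes moved to 0.10 and that of the first-cross higher genes to 0.10, the X-linked median to 0.63 and the first-cross lower median to 0.67; the first-cross higher median was otherwise between -0.22 and 0. The number of libraries, 3 against 2, limits the smallest change that could pass.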
